A study of Mus musculus with 9 samples.

Results

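The genes described here are 50 genes that act in mitosis, and their messenger RNA was followed in tumor cells of the murine mammary lines 4T1, 4T07 and 67NR. The genes were listed by symbol, with earlier results of these data known. A gene was measured where the array platform's annotation gives 1 of its probes that symbol alone. This held for 37 of the 50 genes, with 64 probes between them, out of 10021 genes tested in all. The genes without such a probe, which are not analysed here, are Bub1, Ttk, Ccnb1, Ccnb2, Ccna2, Cenpe, Kif20a, Nuf2, Nek2, Racgap1, Hmmr, Ube2c and Ncapg, so that the mitotic cyclins are among those missing. All 37 measured genes passed the filter on dim probes (3 or more arrays with a detection p below 0.05), and 34 of them were detected on all 9 arrays.

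The 3 groups were 4T1, 4T07 and 67NR tumors, with 3 arrays each. In every group 500000 cells were placed in the mammary fat pad of female Balb/c mice that carry GFP under a ubiquitin promoter, and the tumors grew for 2 to 4 weeks to a mean diameter of 10 mm. Cells negative for GFP and for CD45 were then sorted, without any treatment, and their total RNA was hybridized to bead arrays. The lines descend from the same spontaneous mammary tumor. They are known to differ in spread: 4T1 forms overt metastases, 4T07 reaches the lung but forms only micrometastases, and 67NR stays at the primary site. Each class of spread is a single line, so that spread and line cannot be told apart, and the labels do not say whether the arrays of a line come from separate mice, so that p-values measure only the spread between these arrays.

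A dividing cell builds its mitotic machinery afresh in each cycle. Transcripts of these genes accumulate from the end of DNA replication to mitosis and are low in resting cells. Many of their promoters carry a CCAAT box, the site of NF-Y, and a cell cycle genes homology region. Through the homology region the DREAM complex holds them off in resting cells, and the B-Myb, MuvB and FoxM1 proteins turn them on before division. Cdk1 with its cyclins starts mitosis, the Aurora and Polo kinases and the kinesins build the spindle, the kinetochore attaches chromosomes to it, the spindle checkpoint waits for the last attachment, and the anaphase-promoting complex with Cdc20 then ends the arrest.

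Most of the mitotic genes were lower in 4T1 than in 67NR tumor cells, with the 4T07 mean in between for 24 of 37. In 4T1 against 67NR, 23 of the 37 genes were lower (limma, adjusted p under 0.05 after Benjamini-Hochberg over all genes tested) and 0 were higher, where 26.6% of all genes were lower and 23.2% higher. No mitotic gene was higher at an unadjusted p under 0.05 either, by limma or by the methods' t-test. This holds with the brightest probe standing for each gene, while a dimmer probe of Zwint was higher. The median log2 fold change of the 37 genes was -0.62, against -0.05 over all genes tested, and 35 of the 37 values were negative. In 26 genes every 4T1 array lay below every 67NR array, which held for 31.3% of all genes. As the arrays measured RNA of sorted cells in bulk, fewer dividing cells and less transcript per dividing cell cannot be told apart.

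In 4T07 against 67NR, 10 of the 37 genes were lower and 0 higher, where 23.4% of all genes were lower and 21.9% higher, so that the share of mitotic genes called here was close to that of all genes. Their median was -0.36, with 30 negative values, and 14 genes did not overlap in the lower direction, against 28% of all genes. Cenpa alone was higher at an unadjusted p under 0.05. In 4T1 against 4T07, 10 genes were lower and 0 higher (0 also at an unadjusted p under 0.05), where 15.8% of all genes were lower and 14% higher. The median was again -0.36, against -0.01 over all genes, with 31 negative values, and 15 genes did not overlap in the lower direction, where 23.3% of all genes did. Each of these comparisons shares the arrays of 1 line with each of the others. Some of the calls rested on single arrays. Of the calls in 4T07 against 67NR, those of Cdc20, Plk1, Ncapd2 and Kif11 were lost without 67NR replicate 3, 4T07 replicate 2 or 4T07 replicate 3. Cdc20 and Kif11 were also lost without 67NR replicate 1, and Kif11 without 4T1 replicate 2. Ncapd2 was also lost without 67NR replicate 2 or 4T07 replicate 1. Of the calls in 4T1 against 4T07, those of Mad2l1, Kif22, Spc25 and Tpx2 were lost without 4T07 replicate 1, 4T1 replicate 2 or 4T1 replicate 3, which left 6. Mad2l1, Spc25 and Tpx2 were also lost without 4T07 replicate 3, Mad2l1 without 4T1 replicate 1, and Kif22 without 4T07 replicate 2. By their line means, 24 of the 37 genes (64.9%) were lowest in 4T1 and highest in 67NR, an order that 23% of all genes had. In 13 genes no comparison passed the threshold.

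**Figure D1:**
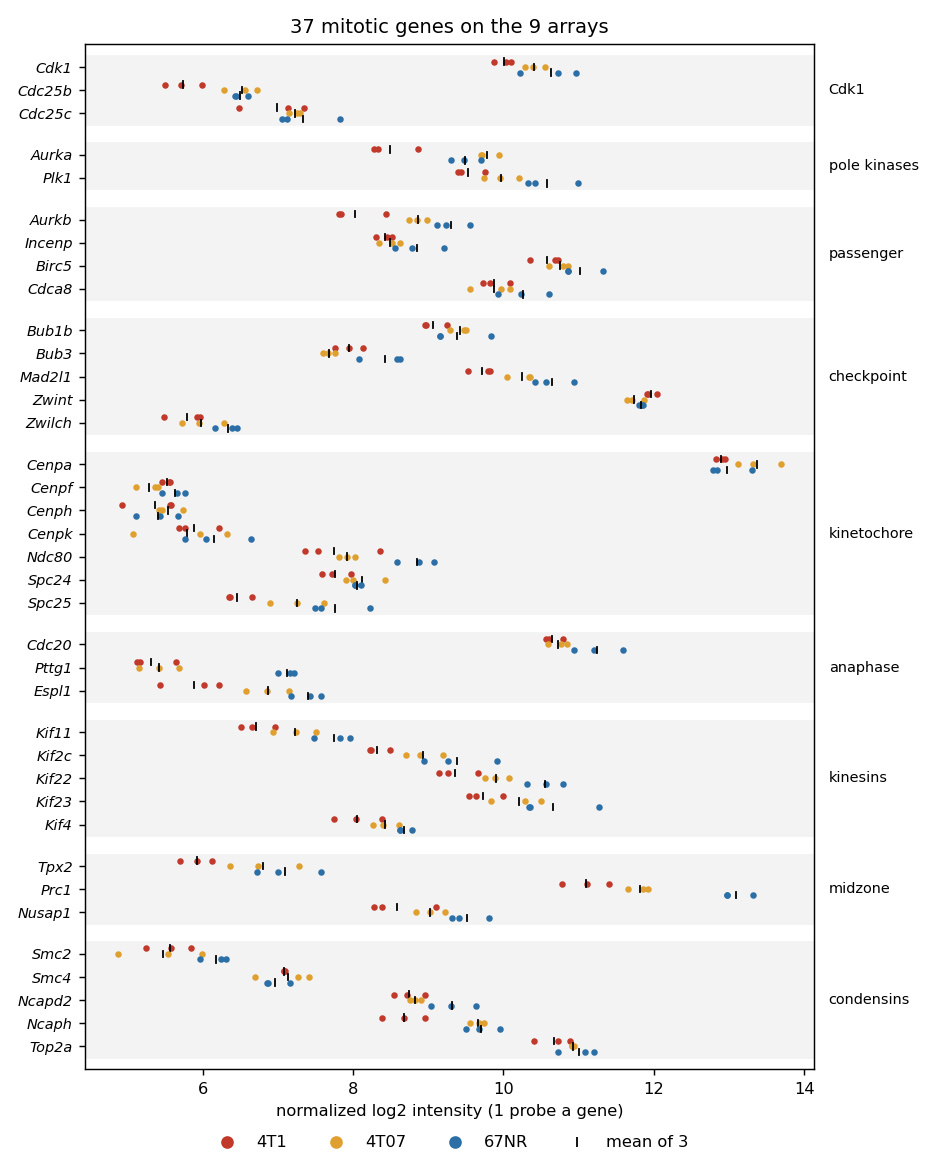
Normalized log2 intensity (horizontal axis) of the 37 measured mitotic genes, by role, with 1 point an array for 4T1 (red), 4T07 (orange) and 67NR (blue) and a bar at the mean of 3 arrays. Prc1, at the bright end, and Pttg1, at the dim end, have all 67NR arrays well to the right of the others, while the points of Smc4, Cenph and Cenpk are mixed.

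Within a line, many of the mitotic genes shifted together from array to array. Relative to each gene's mean over the 9 arrays, the median of the mitotic genes was -0.09, -0.54 and -0.49 on the 4T1 arrays, 0.08, -0.06 and 0.03 on the 4T07 arrays, and 0.29, 0.13 and 0.62 on the 67NR arrays (replicates 1 to 3, log2 scale). The lines did not overlap in this median, but 4T1 replicate 1 lay next to 4T07 replicate 2. Replicate 3 of 67NR was the highest array of its line for 30 of the 37 genes, and replicate 1 of 4T1 was the highest of its line for 32. Without 67NR replicate 3, 18 of the 23 genes remained lower in 4T1 against 67NR, and Cdc20, Cdk1, Ncapd2, Bub3 and Zwilch no longer passed. Without the same array the median of 4T07 against 67NR was -0.20, and 6 genes were lower in it, where 19.4% of all genes were.

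**Figure D2:**
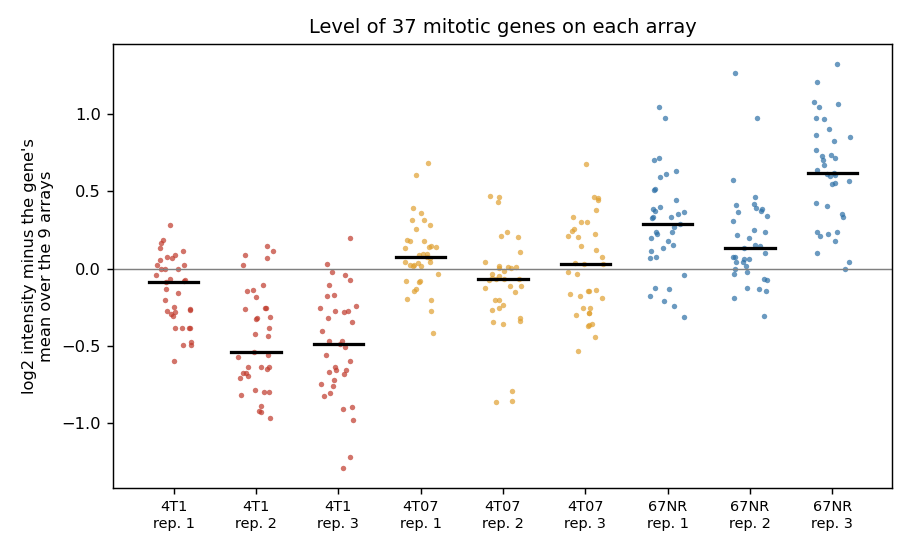
Log2 intensity of each of the 37 mitotic genes minus its mean over the 9 arrays (vertical axis), with 1 point a gene and a bar at the median, for the 3 arrays of 4T1, 4T07 and 67NR. The medians run between -0.54 and -0.09 in 4T1, -0.06 and 0.08 in 4T07, and 0.13 and 0.62 in 67NR.

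The sorted cells differed in more than these genes. Of 12 epithelial markers with a named probe, 11 were detected on at least 1 array in 4T1, 7 in 4T07 and 4 in 67NR, and their summed normalized intensity was 39896 to 49832 in 4T1, 5101 to 8193 in 4T07 and 354 to 359 in 67NR. In 67NR the defining markers Krt18, Krt14, Cldn3, Cldn4, Krt19, Krt5, Esrp1 and Esrp2 were not detected on any array. The 9 leukocyte markers summed to 683 to 740 in 4T1, 1058 to 1278 in 4T07 and 1370 to 2913 in 67NR, with 4, 7 and 7 of them detected in the same order of lines, and Adgre1 was not detected in any line. The 14 fibroblast and pericyte markers summed to 1324 to 1530 in 4T1, 3148 to 4562 in 4T07 and 2803 to 3745 in 67NR, with 8, 6 and 9 of them detected, and Fap, Postn and Rgs5 were not detected in any line. The 9 endothelial markers summed to 249 to 304 in 4T1, 248 to 317 in 4T07 and 297 to 309 in 67NR, with 4, 5 and 4 detected, and Vwf and Cldn5 were not detected in any line. The globin gene Hba-a1, the only erythroid marker with a probe, was at 25 to 27 in 4T1 and 22 to 29 in 4T07, where it was not detected, and at 198 to 350 in 67NR. The part of other cell types in the differences of the mitotic genes was not tested.

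**Figure D3:**
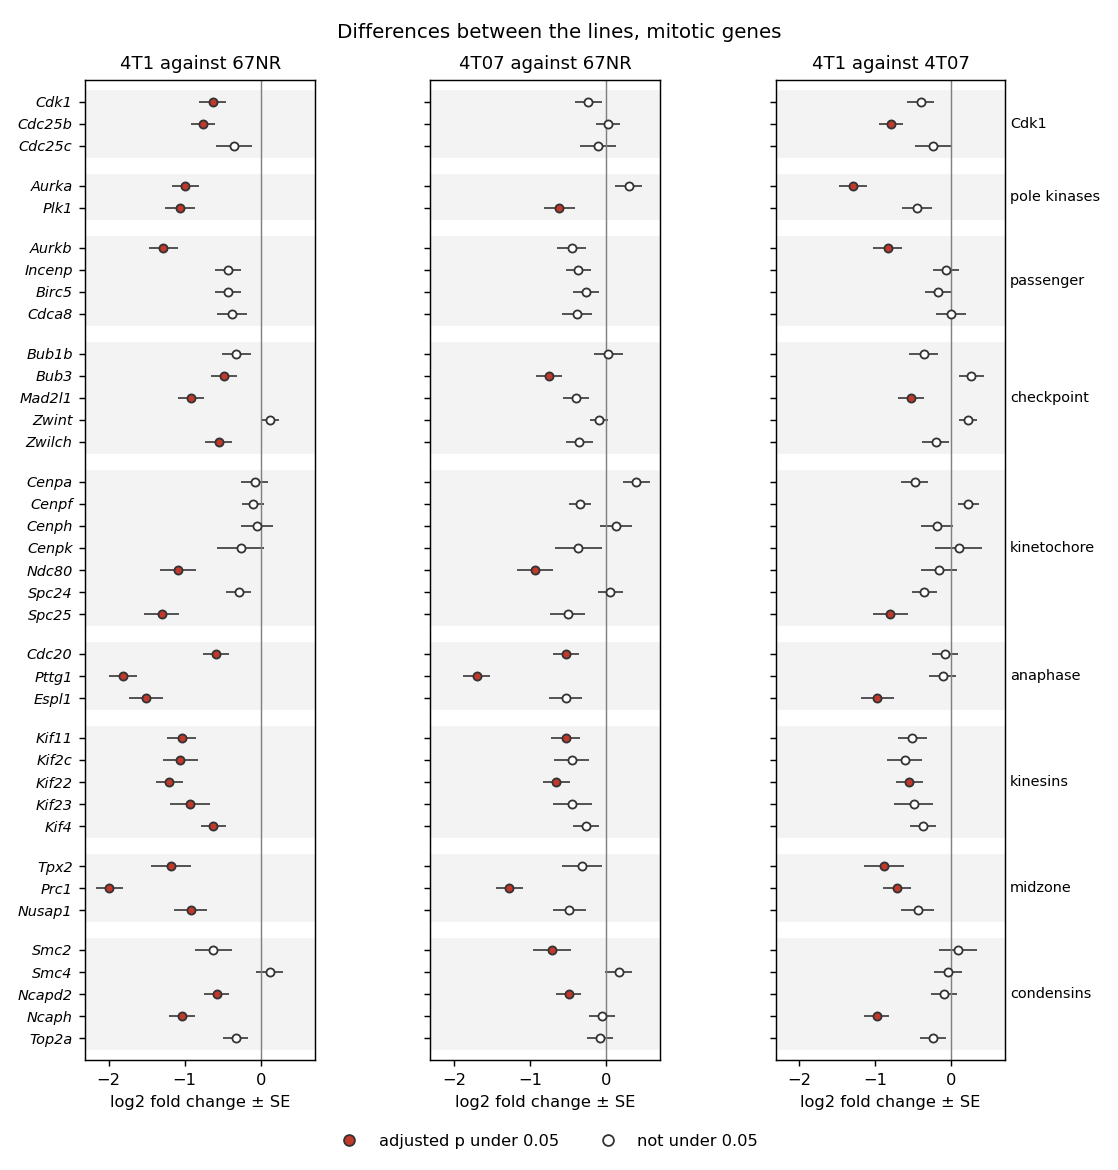
Log2 fold change with its standard error (horizontal axis) of the 37 mitotic genes in 3 panels, 4T1 against 67NR, then 4T07 against 67NR, then 4T1 against 4T07, with filled points at an adjusted p under 0.05. Of the 23, 10 and 10 filled points none lies to the right of 0.

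Cdk1, the kinase that drives entry into mitosis, had 10.1, 10.03 and 9.88 on the 4T1 arrays, 10.39, 10.28 and 10.55 on the 4T07 arrays, and 10.72, 10.22 and 10.96 on the 67NR arrays (all levels are normalized log2 intensities). All 4T1 arrays lay below all 67NR arrays, while 4T07 and 67NR overlapped. Cdk1 was lower in 4T1 than in 67NR by a log2 fold change of -0.63 (SE 0.18, adjusted p = 0.0133), but this call was lost without 67NR replicate 3, and 4T07 against 67NR stood at -0.23 (SE 0.18, adjusted p = 0.338). Cdc25b, a phosphatase that activates Cdk1, set 4T1 apart from both other lines. It averaged 5.74 ± 0.24 in 4T1, 6.52 ± 0.23 in 4T07 and 6.50 ± 0.09 in 67NR (SD, n = 3 arrays each), and it was lower in 4T1 against 67NR (-0.76, adjusted p = 0.00246) and against 4T07 (-0.79, adjusted p = 0.00409), at -0.30 and -0.31 with the deposited log2 values. Its relative Cdc25c varied widely within 4T1, where the arrays read 7.35, 6.48 and 7.14, and no comparison of its brighter probe passed.

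The kinases of the spindle poles separated the lines in different ways. Aurka (Aurora A), which matures the centrosomes, had 8.87, 8.33 and 8.28 in 4T1, 9.94, 9.72 and 9.7 in 4T07, and 9.7, 9.3 and 9.47 in 67NR. It was lower in 4T1 than in 4T07 by -1.29 (SE 0.18, adjusted p = 0.000283), the largest difference between these lines among the 37 genes, and lower in 4T1 than in 67NR by -0.99 (SE 0.18, adjusted p = 0.000753). In 4T07 against 67NR it stood at 0.30 (SE 0.18, adjusted p = 0.206). Plk1, the Polo kinase of centrosomes, kinetochores and midzone, followed another order, with 9.75, 9.39 and 9.43 in 4T1, 10.21, 9.96 and 9.74 in 4T07, and 10.42, 10.33 and 10.99 in 67NR. Here 67NR stood above both other lines without overlap, and Plk1 was lower in 4T1 against 67NR (-1.06, SE 0.20, adjusted p = 0.000948) and in 4T07 against 67NR (-0.61, SE 0.20, adjusted p = 0.0262).

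Of the chromosomal passenger complex, which corrects faulty attachments at the centromere, the kinase was lower in 4T1 and the probes standing for its partners did not pass. Aurkb (Aurora B) had 8.44, 7.81 and 7.84 in 4T1, 8.99, 8.74 and 8.85 in 4T07, and 9.24, 9.12 and 9.56 in 67NR. The lines did not overlap at all, and Aurkb was lower in 4T1 against 67NR (-1.28, SE 0.19, adjusted p = 0.000174) and against 4T07 (-0.83, SE 0.19, adjusted p = 0.00685). Its partner Birc5 (survivin) had 10.72, 10.35 and 10.68 in 4T1, 10.86, 10.79 and 10.61 in 4T07, and 10.86, 10.86 and 11.33 in 67NR. The 4T1 arrays of Birc5 also lay below those of 67NR, by -0.43 (SE 0.17), but at an adjusted p of 0.052. The scaffold Incenp stood at -0.43 (adjusted p = 0.059) and Cdca8 (borealin) at -0.38 (adjusted p = 0.141) in the same comparison. Birc5 and Incenp came under 0.05 there with the deposited log2 values (adjusted p = 0.026 and 0.0428). They also did so without background correction and at an offset of 50. In 4T07 against 67NR the 4 genes ranged from -0.45 to -0.26 with none past the threshold.

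Among the genes of the spindle checkpoint, Mad2l1, whose product holds Cdc20 inactive until chromosomes are attached, had 9.82, 9.53 and 9.8 in 4T1, 10.34, 10.05 and 10.35 in 4T07, and 10.57, 10.42 and 10.94 in 67NR. The 3 lines again did not overlap, and Mad2l1 was lower in 4T1 against 67NR (-0.92, SE 0.17, adjusted p = 0.000718) and against 4T07 (-0.53, SE 0.17, adjusted p = 0.0329). The call against 4T07 was lost on leaving out any single 4T1 array, 4T07 replicate 1 or 4T07 replicate 3. It was also lost with the mean of its probes (-0.39, adjusted p = 0.201). Bub1b (BubR1), its partner in the checkpoint complex, had 9.25, 8.96 and 8.97 in 4T1, 9.47, 9.29 and 9.5 in 4T07, and 9.16, 9.16 and 9.84 in 67NR. Only replicate 3 set 67NR above the other lines here, and the log2 fold change of 4T1 against 67NR was -0.32 (SE 0.19, adjusted p = 0.183). Bub3, which brings the checkpoint kinases to kinetochores, was lowest in 4T07. It had 8.13, 7.76 and 7.94 in 4T1, 7.6, 7.67 and 7.76 in 4T07, and 8.63, 8.08 and 8.58 in 67NR. It was lower in 4T07 against 67NR (-0.75, SE 0.17, adjusted p = 0.00345) and, with 1 array of each line overlapping, in 4T1 against 67NR (-0.48, SE 0.17, adjusted p = 0.0326, a call lost without 67NR replicate 1, 67NR replicate 3, 4T1 replicate 2 or 4T1 replicate 3). Zwilch, a subunit of the complex that brings dynein to kinetochores, was lower in 4T1 against 67NR (-0.55, adjusted p = 0.026, lost without 67NR replicate 1, 67NR replicate 3 or 4T1 replicate 3, and at -0.24 without background correction, adjusted p = 0.0604). Zwint, the docking site of that complex, was at 11.96 ± 0.07 in 4T1, 11.74 ± 0.12 in 4T07 and 11.83 ± 0.03 in 67NR by its brighter probe. No comparison of that probe passed. The dimmer probe, tested on its own, was higher in 4T1 against 67NR (0.93) and against 4T07 (0.98).

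Of the 7 measured genes of the centromere and kinetochore in the list, 2 were lower in 4T1 against 67NR, a share close to the 26.6% of all genes. These were Ndc80 and Spc25, of the outer complex that binds microtubules, and the other 5 did not pass. Ndc80, the subunit that grips microtubules, had 8.36, 7.36 and 7.54 in 4T1, 8.03, 7.92 and 7.81 in 4T07, and 8.88, 8.59 and 9.08 in 67NR. Each 67NR array exceeded all arrays of the other lines, and Ndc80 was lower in 4T1 (-1.09, SE 0.24, adjusted p = 0.00239) and in 4T07 (-0.93, SE 0.24, adjusted p = 0.00715) against 67NR. Spc25, of the same complex, had 6.66, 6.36 and 6.35 in 4T1, 7.25, 6.89 and 7.62 in 4T07, and 7.49, 7.57 and 8.22 in 67NR. Its 4T1 arrays were the lowest, and it was lower in 4T1 against 67NR (-1.30, SE 0.23, adjusted p = 0.000573) and against 4T07 (-0.80, SE 0.23, adjusted p = 0.0215). With the deposited log2 values these were -0.70 and -0.40. The direct partner of Spc25, Spc24, stood at only -0.29 (adjusted p = 0.165) in 4T1 against 67NR. Cenpa, the histone H3 variant that marks the centromere, was among the brightest of the 37 genes, with 12.95, 12.83 and 12.91 in 4T1, 13.69, 13.32 and 13.12 in 4T07, and 12.84, 12.78 and 13.31 in 67NR. Its mean was highest in 4T07, but 4T07 and 67NR overlapped and the log2 fold change of 0.40 (SE 0.18) had an adjusted p of 0.0951, which came under 0.05 without 67NR replicate 3 or without 4T07 replicate 3. Cenpf, Cenph and Cenpk, all dim, ranged from -0.26 to -0.05 in 4T1 against 67NR, and none passed in any comparison.

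The 3 listed genes of anaphase onset with a probe, Pttg1, Espl1 and Cdc20, were lower in 4T1 than in 67NR, where 26.6% of all genes were. Pttg1 (securin), the inhibitor of separase, had 5.65, 5.17 and 5.13 in 4T1, 5.68, 5.16 and 5.42 in 4T07, and 7.0, 7.22 and 7.16 in 67NR. The 4T1 and 4T07 arrays were intermixed and far below those of 67NR. Pttg1 was 3.51-fold lower in 4T1 (log2 fold change -1.81, SE 0.18, adjusted p = 6.32e-06) and 3.26-fold lower in 4T07 (-1.70, SE 0.18, adjusted p = 1.18e-05), while 4T1 against 4T07 stood at -0.11 (SE 0.18, adjusted p = 0.709). Without background correction Pttg1 stood at -0.83 in 4T1 and -0.80 in 4T07 against 67NR, and with the deposited log2 values at -0.75 and -0.71. Espl1, separase itself, which cuts the cohesin ring, had 6.22, 6.02 and 5.43 in 4T1, 6.86, 7.15 and 6.58 in 4T07, and 7.43, 7.18 and 7.58 in 67NR. The lines were ordered without overlap, and Espl1 was 2.84-fold lower in 4T1 against 67NR (-1.51, SE 0.22, adjusted p = 0.000141) and 1.96-fold lower against 4T07 (-0.97, SE 0.22, adjusted p = 0.00607). Espl1 too was sensitive to the correction, at -0.79 against 67NR and -0.47 against 4T07 without it, and -0.70 and -0.42 with the deposited values. Cdc20, the activator of the anaphase-promoting complex, had 10.79, 10.56 and 10.6 in 4T1, 10.84, 10.76 and 10.59 in 4T07, and 11.21, 10.94 and 11.59 in 67NR. It resembled Pttg1 in that 4T1 and 4T07 were intermixed below 67NR, at a smaller step of -0.59 (SE 0.17, adjusted p = 0.0135) in 4T1 and -0.52 (SE 0.17, adjusted p = 0.0294) in 4T07, of which neither passed without 67NR replicate 3.

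The 5 kinesins of the list with a probe, motor proteins that move along or take apart microtubules, were all lower in 4T1 than in 67NR, where 26.6% of all genes were. Of kinesins outside the list, named after their values were seen, Kif18a, Kif18b, Kifc1 and Kif2a were lower too, while Kif15 (-0.20, adjusted p = 0.363) and Kif20b (-0.26, adjusted p = 0.494) did not pass. Kif11 (Eg5), which pushes the spindle poles apart, had 6.96, 6.66 and 6.51 in 4T1, 7.51, 7.24 and 6.93 in 4T07, and 7.82, 7.48 and 7.96 in 67NR. It was lower in 4T1 (-1.04, SE 0.19, adjusted p = 0.000824), and in 4T07, although 1 array overlapped, by -0.53 (SE 0.19, adjusted p = 0.0425). Kif22, a motor on chromosome arms, passed the threshold in each comparison. It averaged 9.36 ± 0.27 in 4T1, 9.91 ± 0.17 in 4T07 and 10.56 ± 0.24 in 67NR (SD, n = 3 arrays each), at -1.20 in 4T1 against 67NR (adjusted p = 0.000174), -0.65 in 4T07 against 67NR (adjusted p = 0.0112) and -0.55 in 4T1 against 4T07 (adjusted p = 0.0377). Kif2c, which shortens microtubules at centromeres, stood at -1.06, Kif23, a motor of the midzone, at -0.93, and Kif4, a motor that binds condensed chromosomes, at -0.62 in 4T1 against 67NR, with adjusted p-values between 0.00238 and 0.0110.

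Among proteins that organize the spindle and its midzone, Prc1, which bundles antiparallel microtubules between the separating chromosomes, had the largest fall of the 37 genes. Its levels were 11.4, 11.11 and 10.78 in 4T1, 11.92, 11.66 and 11.85 in 4T07, and 12.97, 12.97 and 13.32 in 67NR. The lines did not overlap, and each step between line means exceeded the SD within a line (0.13 to 0.31). Prc1 was 3.96-fold lower in 4T1 against 67NR (-1.99, SE 0.18, adjusted p = 2.44e-06), 2.42-fold lower in 4T07 against 67NR (-1.27, SE 0.18, adjusted p = 0.000113) and 1.64-fold lower in 4T1 against 4T07 (-0.71, SE 0.18, adjusted p = 0.0109). Tpx2, the activator of Aurora A on the spindle, had 6.13, 5.93 and 5.7 in 4T1, 6.74, 6.37 and 7.28 in 4T07, and 6.72, 7.0 and 7.58 in 67NR. As for Aurka, 4T1 was the line apart, with -1.18 (SE 0.26, adjusted p = 0.00258) against 67NR and -0.88 (SE 0.26, adjusted p = 0.0247) against 4T07. With the deposited log2 values Tpx2 stood at -0.54 and -0.38, and the call against 4T07 was lost (adjusted p = 0.0524). Nusap1, a protein that stabilizes spindle microtubules near chromosomes, was lower in 4T1 against 67NR (-0.92, adjusted p = 0.00478) and did not pass elsewhere.

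The condensin subunits, which compact chromosomes, differed in which comparisons they passed. Ncaph, of condensin I, had 8.96, 8.38 and 8.68 in 4T1, 9.74, 9.55 and 9.68 in 4T07, and 9.67, 9.5 and 9.95 in 67NR. The 4T07 and 67NR arrays were intermixed, and Ncaph was lower in 4T1 against 67NR (-1.03, SE 0.17, adjusted p = 0.000438) and against 4T07 (-0.98, SE 0.17, adjusted p = 0.00142). Ncapd2, of the same complex, was lower in 4T1 (-0.58, adjusted p = 0.0154, lost without 67NR replicate 3 or 4T1 replicate 2) and in 4T07 (-0.49, adjusted p = 0.0359) against 67NR, with 4T1 against 4T07 at -0.09. The ATPase subunit Smc2 was dim, with 5.58, 5.85 and 5.25 in 4T1, 5.54, 4.88 and 5.99 in 4T07, and 6.25, 6.31 and 5.97 in 67NR. The 4T07 arrays spread from below the lowest 4T1 array to just above the lowest 67NR array, and 1 of them was not detected. Smc2 was lower in 4T07 against 67NR (-0.71, SE 0.25, adjusted p = 0.0403), a call lost without 67NR replicate 1, 67NR replicate 2, 4T07 replicate 1, 4T07 replicate 2 or 4T1 replicate 1, and without background correction (-0.28, adjusted p = 0.0642), and 4T1 stood at -0.62 (SE 0.25, adjusted p = 0.064). Its partner Smc4 stood at 0.12 in 4T1 and 0.17 in 4T07 against 67NR, and did not pass. Top2a, the topoisomerase that untangles sister chromatids, had 10.89, 10.73 and 10.4 in 4T1, 10.91, 10.91 and 10.94 in 4T07, and 11.09, 10.72 and 11.2 in 67NR. The 67NR arrays overlapped those of both other lines, while all 4T1 arrays lay just below those of 4T07, and no comparison passed (-0.33, SE 0.17, adjusted p = 0.129 in 4T1 against 67NR).

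Reference promoters of the genes were read to see what these transcripts share in sequence, using 300-base windows of RefSeq on GRCm38.p6 (250 bases before the start of transcription and 50 after) for 30 of the 37 measured genes. The motifs searched on both strands were CCAAT, the NF-Y box, and TTTGAA or TTCGAA, the cell cycle genes homology region. CCAAT was found in 23 of the 30 genes (76.7%) and in 41.1% of all 27025 genes with a window. TTTGAA or TTCGAA was found in 22 of the 30 (73.3%), against 21.7% of all genes, and CCAAT together with either of them in 20 (66.7%), against 8.61%. The 22 genes with TTTGAA or TTCGAA had a median log2 fold change of -0.70 in 4T1 against 67NR and the 8 without had -0.68, with 16 and 4 of them lower. Over all genes tested the median was -0.05, and 26.6% were lower. Whether genes with and without the motif differ was not tested. The 100 bases before the start are printed for the genes with a fall in 4T1 against 67NR that have both motifs there (Prc1, Kif22, Kif11, Espl1, Cdc20, Cdk1 and Bub3), for Pttg1, which was also lower and has neither there, and for Top2a and Zwint, which did not pass. They are 5′ to 3′ in the direction of the gene, and capitals mark CCAAT, which reads ATTGG where it lies on the other strand, and TTTGAA, which there reads TTCAAA.
In this order they lie at chr7:80294376-80294475 (plus strand) for Prc1, chr7:127042421-127042520 (minus strand) for Kif22, chr19:37376282-37376381 (plus strand) for Kif11, chr15:102296193-102296292 (plus strand) for Espl1, chr4:118437344-118437443 (minus strand) for Cdc20, chr10:69352913-69353012 (minus strand) for Cdk1, chr7:131560270-131560369 (plus strand) for Bub3, chr11:43425982-43426081 (minus strand) for Pttg1, chr11:99024190-99024289 (minus strand) for Top2a and chr10:72654746-72654845 (plus strand) for Zwint.
Prc1: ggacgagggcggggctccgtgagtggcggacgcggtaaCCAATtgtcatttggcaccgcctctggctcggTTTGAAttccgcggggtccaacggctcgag
Kif22: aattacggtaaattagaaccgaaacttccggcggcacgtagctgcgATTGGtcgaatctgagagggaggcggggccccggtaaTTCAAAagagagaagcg
Kif11: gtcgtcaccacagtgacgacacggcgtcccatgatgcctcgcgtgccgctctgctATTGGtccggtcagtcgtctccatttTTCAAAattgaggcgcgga
Espl1: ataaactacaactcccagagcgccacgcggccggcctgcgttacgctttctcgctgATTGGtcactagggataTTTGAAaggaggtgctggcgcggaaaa
Cdc20: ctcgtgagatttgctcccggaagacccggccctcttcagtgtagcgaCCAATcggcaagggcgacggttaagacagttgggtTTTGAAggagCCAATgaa
Cdk1: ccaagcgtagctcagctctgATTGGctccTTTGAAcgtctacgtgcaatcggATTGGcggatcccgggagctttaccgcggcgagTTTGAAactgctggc
Bub3: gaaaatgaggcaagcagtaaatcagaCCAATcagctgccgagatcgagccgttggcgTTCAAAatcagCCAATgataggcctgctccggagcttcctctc
Pttg1: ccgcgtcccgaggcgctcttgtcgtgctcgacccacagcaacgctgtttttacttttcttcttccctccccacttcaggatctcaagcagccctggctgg
Top2a: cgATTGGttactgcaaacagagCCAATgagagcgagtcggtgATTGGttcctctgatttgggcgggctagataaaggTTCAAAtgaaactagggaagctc
Zwint: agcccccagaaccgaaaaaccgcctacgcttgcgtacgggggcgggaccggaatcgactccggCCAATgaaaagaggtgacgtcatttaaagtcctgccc

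In the printed stretches the first base of the TTTGAA nearest the start lay 32 bases after that of the nearest CCAAT upstream of it in Prc1, 31 in Bub3, 33 in Cdk1, 35 in Cdc20, 35 in Top2a, 37 in Kif22, 26 in Kif11 and 17 in Espl1. Prc1, with the largest fall, and Top2a, with no call, thus have the motifs at a like distance. Cdc20 and Bub3 have a further CCAAT after that TTTGAA. Prc1 and Bub3 have 2 windows each in the reference, of which 1 is shown.

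Probes of the same gene mostly moved together. Of 18 genes with several probes, those whose probes differed in call or sign in 4T1 against 67NR were Cdc25c, Cdca8, Mad2l1, Zwint, Zwilch, Ncapd2 and Top2a (each of 63 kept probes tested as a feature of its own, adjusted over all 15686 kept named probes). In that test 37 of the 63 probes were lower and 1 was higher in 4T1 against 67NR, where 24.3% of all kept probes were lower and 21.8% higher. The probe that was higher belongs to Zwint. It had 10.59, 10.7 and 10.59 in 4T1, 9.32, 9.52 and 10.1 in 4T07, and 9.59, 9.93 and 9.58 in 67NR, so that 4T1 stood apart. Its log2 fold changes were 0.93 (SE 0.20, adjusted p = 0.00218) against 67NR and 0.98 (adjusted p = 0.0033) against 4T07, where the brighter Zwint probe gave 0.12 and 0.22. The Top2a probes differed in sign, at 0.38 for the dimmer and -0.33 for the brighter, and neither passed.

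For Cdc25c and Cdca8 the dimmer probe was lower in 4T1 against 67NR (-0.53 for each, adjusted p = 0.0449 for Cdc25c and 0.0178 for Cdca8), while the brighter probe, at -0.35 and -0.38, did not pass. The dimmer Mad2l1 probe stood at -0.72 (adjusted p = 0.0708) beside -0.92 for the brighter one. Of 3 Zwilch probes, -0.98 and -0.55 passed and -0.47 did not. Of 3 Ncapd2 probes, -0.58 passed and -0.56 and -0.17 did not. Kif23 was represented by 4 probes that were all lower in 4T1 against 67NR, but to a different extent. The one with the smallest spread within a line had 9.16, 9.18 and 9.21 in 4T1, 10.23, 9.97 and 10.11 in 4T07, and 11.06, 10.92 and 10.82 in 67NR. It separated all lines, at -1.75 (SE 0.14, adjusted p = 5.92e-07) in 4T1 against 67NR, -0.83 (adjusted p = 0.000375) in 4T07 against 67NR and -0.92 (adjusted p = 0.000418) in 4T1 against 4T07, where the brightest Kif23 probe passed in the first alone.

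In 4T07 against 67NR, the dimmer Nusap1 probe (-0.61, adjusted p = 0.0175) and a dimmer Zwilch probe (-0.83, adjusted p = 0.0185) were lower where the brighter probe did not pass, the dimmer Ncapd2 probes (-0.20 and -0.47) did not pass where the brightest did, and the Bub1b probes differed in sign at 0.03 and -0.07. In 4T1 against 4T07, the dimmer Cenpa probe was lower (-0.65, adjusted p = 0.0172) where the brighter one, at -0.48, was not, and the dimmer Spc25 and Mad2l1 probes, at -0.77 and -0.25, did not pass where the brighter ones did.

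**Figure D4:**
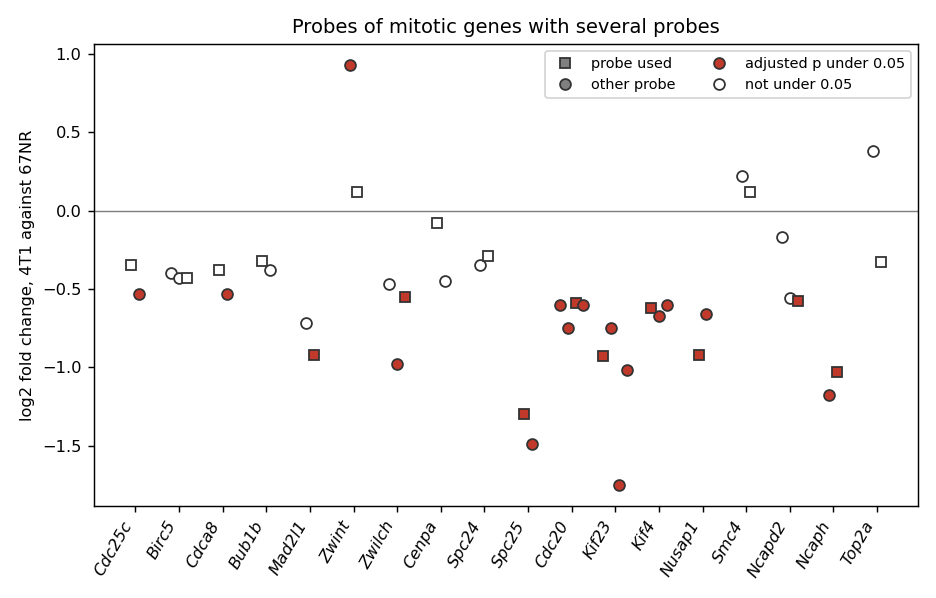
Log2 fold change in 4T1 against 67NR (vertical axis) of each kept probe of the mitotic genes with several probes, with a square for the probe that stands for the gene, a circle for others, and a filled symbol at an adjusted p under 0.05. The dimmer Zwint probe, at 0.93, is the only filled symbol above 0, and the Kif23 probes spread between -1.75 and -0.75.

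Genes that work beside these 37 were counted in the same fit. Of all genes tested, 26.6% were lower and 23.2% higher in 4T1 against 67NR. The shares were 23.4% and 21.9% in 4T07 against 67NR, and 15.8% and 14% in 4T1 against 4T07. Of 63 measured mitotic genes outside the list (microtubule regulators, further kinetochore and centromere proteins, kinases and proteins of cytokinesis), 37 were lower and 5 higher in 4T1 against 67NR, 24 lower and 10 higher in 4T07 against 67NR, and 14 lower and 0 higher in 4T1 against 4T07, with medians of -0.59, -0.40 and -0.19. The largest falls in 4T1 against 67NR were those of Gtse1, a microtubule-bound protein of G2 and mitosis, at -2.52 (adjusted p = 3.4e-07), Depdc1b at -2.29, Cenpm, of the inner kinetochore, at -2.06, and Troap at -1.98. Gtse1 had 8.04, 7.66 and 7.73 in 4T1, 8.55, 8.5 and 8.07 in 4T07, and 10.15, 10.24 and 10.59 in 67NR. As for Pttg1, 67NR lay far above both other lines, but Gtse1 was also lower in 4T1 against 4T07 (-0.56, adjusted p = 0.0358).

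The machinery that Cdc20 activates and the ring that Espl1 cuts were counted apart, and their difference from the mitotic genes was not tested. Of 12 measured subunits and regulators of the anaphase-promoting complex, 2 were lower and 2 higher in 4T1 against 67NR (26.6% and 23.2% of all genes): Anapc13 at -0.86 and Anapc15 at -0.84, Cdc23 at 1.01 and Cdc16 at 0.86. In 4T07 against 67NR 3 were lower and 2 higher (23.4% and 21.9% of all genes). In 4T1 against 4T07 0 were lower and 1, Anapc15, was higher, at 0.49 (15.8% and 14% of all genes). Of 12 cohesin genes, 2 were lower in 4T1 against 67NR, namely Cdca5 (sororin, which locks the ring on replicated DNA) at -0.54 and Esco2, an acetyltransferase of the same step, at -0.51. Another 2 were higher, namely the ring subunit Smc1a at 0.63 and its release factor Wapl at 0.56. In 4T07 against 67NR 0 cohesin genes were lower and 2 higher (Smc1a at 1.00, Wapl at 0.69), and in 4T1 against 4T07 Esco2 was lower and Nipbl higher.

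Of 18 measured genes that govern transcription in the cell cycle, 7 were lower and 2 higher in 4T1 against 67NR (26.6% and 23.2% of all genes). In 4T07 against 67NR 5 were lower and 2 higher (23.4% and 21.9% of all genes). In 4T1 against 4T07 4 were lower and 1 higher (15.8% and 14% of all genes). The share lower in 4T07 against 67NR was thus close to that of all genes. E2f1, an activator of the entry into S phase, had 9.55, 9.82 and 9.82 in 4T1, 11.13, 11.08 and 11.09 in 4T07, and 10.48, 10.21 and 10.56 in 67NR. It was the highest in 4T07, as Aurka was by its mean, at -0.69 in 4T1 against 67NR (adjusted p = 0.00168), 0.69 in 4T07 against 67NR (adjusted p = 0.00186) and -1.38 in 4T1 against 4T07. The pocket protein genes Rb1 and Rbl1, whose products hold E2F factors back, each stood at -0.99 in 4T1 against 67NR, and Rbl1 at -1.09 against 4T07. Foxm1, the activator of the genes of G2 and mitosis, was lower in 4T1 against 67NR (-0.58, adjusted p = 0.0149) and 4T07 (-0.55, adjusted p = 0.0321), while Mybl2, the gene of B-Myb, stood at 0.06 (adjusted p = 0.858) against 67NR. Foxm1 and Mybl2 were chosen for their role, after their values were seen. E2f2, another activator, was lower in 4T1 (-0.90, adjusted p = 0.0266) and in 4T07 (-2.00, adjusted p = 0.000201) against 67NR, and higher in 4T1 against 4T07 (1.10, adjusted p = 0.0173). The 2 genes higher in 4T1 against 67NR were E2f6 (0.81, adjusted p = 0.00211) and E2f4 (0.49, adjusted p = 0.0259). E2f6 was also higher in 4T07 against 67NR (1.04, adjusted p = 0.000404).

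Genes of earlier phases were counted too. Of 28 genes of G1 and S phase, 17 were lower and 1 higher in 4T1 against 67NR (26.6% and 23.2% of all genes). In 4T07 against 67NR 13 were lower and 2 higher (23.4% and 21.9% of all genes). In 4T1 against 4T07 8 were lower and 3 higher (15.8% and 14% of all genes). The medians were -0.57, -0.33 and -0.29. The largest differences in 4T1 against 67NR were those of the G1 kinase Cdk6 at -1.28, cyclin Ccne2 at -1.18, the ribonucleotide reductase subunit Rrm1 at -1.07 and the replication factor Cdc45 at -0.85. Cyclin Ccnd2 ran the other way against 67NR, at 1.68 in 4T07 (adjusted p = 2.28e-05) and 0.54 in 4T1 (adjusted p = 0.0368).

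Of 5 measured inhibitors of the cyclin-dependent kinases, 2 were lower and 1 higher in 4T1 and likewise in 4T07 against 67NR. In 4T1 against 4T07 1 was lower, where 15.8% of all genes were. Of all genes, 26.6% were lower and 23.2% higher in 4T1 against 67NR, and 23.4% and 21.9% in 4T07 against 67NR. Cdkn1a (p21), which halts the cycle after damage and in senescence, had 8.92, 8.23 and 7.43 in 4T1, 9.56, 10.02 and 9.49 in 4T07, and 13.0, 12.98 and 12.95 in 67NR. No arrays overlapped between lines, and it was lower in 4T1 (-4.78, SE 0.30, adjusted p = 1.01e-07) and in 4T07 (-3.28, SE 0.30, adjusted p = 3.14e-06) against 67NR. Cdkn2a, the locus of p16 and p19Arf, was not detected on any 4T1 or 4T07 array and was at 7.46 ± 0.50 in 67NR (SD, n = 3). Cdkn2c (p18) ran against them, at 0.87 in 4T1 against 67NR (adjusted p = 0.00473) and 1.10 in 4T07 against 67NR (adjusted p = 0.00121). The other inhibitors did not pass in any comparison.

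**Figure D5:**
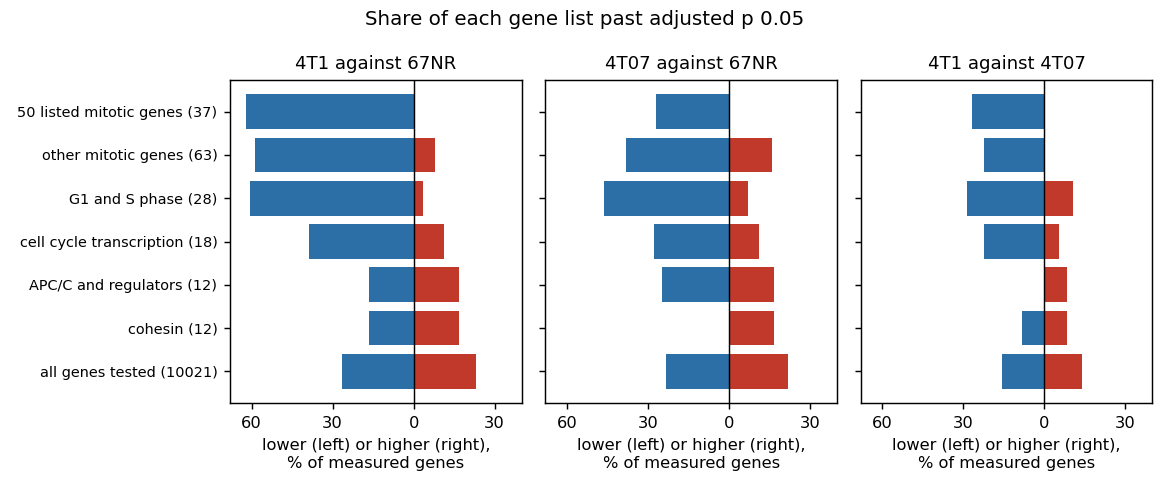
Share of the measured genes of each list (number in parentheses) that were lower (blue, left) or higher (red, right) at an adjusted p under 0.05 in each comparison, in percent. In 4T1 against 67NR, 23 of 37 listed mitotic genes, 37 of 63 other mitotic genes and 17 of 28 genes of G1 and S phase were lower, where 26.6% of all genes were.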

How the data were processed

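The authors deposited an intensity (linear, neither background-subtracted nor normalized) and a detection p-value for each of 45281 probes of MouseWG-6 bead arrays on 9 arrays, and normalized log2 values for 22834 of the probes; how those were normalized is not stated in the sources used here. The intensities were corrected and quantile-normalized with neqc (limma 3.58.1 under R 4.3.3) at an offset of 16, with the negative controls derived from detection p-values. Kept were 15686 probes with 1 gene symbol in the platform annotation that were detected (p below 0.05) on 3 or more arrays, and the brightest stood for its gene (10021 genes). The fit (lmFit, then eBayes) held all 9 arrays, with Benjamini-Hochberg adjustment over all genes and a threshold of 0.05. Differences of dim genes depend on the background correction and its offset, and probe levels do not rank genes by abundance. The small number of arrays limits the precision. The fit was tested on simulated data with separate noise for each gene, where 72 of 100 planted log2 differences of 1 were called. Of 100 planted differences of 2, 99 were called, and 7 of 178 calls were false. Such data leave out shifts that genes share between arrays.

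The members, lists and tests were chosen with earlier results of these data known. Values on every array are given for 14 key genes (Ccnb1, 1 of them, has no named probe) and for the members with the 4 largest falls past the threshold in each comparison (none rose), and of each other list up to 4 genes with the largest change past it are eligible. The alternatives were the deposited log2 values, uncorrected background, an offset of 50 for normexp, centring by medians, no filter, a stricter filter (each array of a line detected at p below 0.01), the mean of a gene's probes, a fit without the line not compared, a block for the replicate number, the methods' t-test, a threshold of at least 1.5-fold, leaving out each array, and, added after seeing the data, each probe as a feature. The slides of the arrays are not given in the files, so that no slide block was run.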

Additional observations from a re-analysis of the deposited data

How the results depend on the processing

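The median log2 fold change of the mitotic genes stayed negative under each alternative for which it was computed (all but the t-tests, the 1.5-fold threshold and the single probes), between -0.64 and -0.46 in 4T1 against 67NR, -0.39 and -0.26 in 4T07 against 67NR, and -0.36 and -0.25 in 4T1 against 4T07. Leaving out an array gave -0.75 to -0.57, -0.50 to -0.20 and -0.46 to -0.28. The number of lower genes in 4T1 against 67NR was 13 by the methods' t-test after Benjamini-Hochberg (21% of all genes). It was 6 at a threshold of at least 1.5-fold (9.74%), and 37 of 63 with each probe as a feature (24.3% of all kept probes). In 4T07 against 67NR it was 6 with median centring (18.6% of all genes). By the methods' t-test it was 4 after adjustment (16.7%) and 6 unadjusted (23.1%). It was 2 at 1.5-fold (7.77%), and 16 of 63 probes (21.6% of all kept probes). In 4T1 against 4T07 it was 2 by that t-test after adjustment (9.89%) and 1 at 1.5-fold (3.75%). Counted by gene, the mitotic share in the last 2 comparisons was below that of all genes in each of these settings. The number of higher genes was 1 in 4T1 against 67NR and 1 in 4T1 against 4T07 with the mean of a gene's probes or with each probe as a feature. Leaving out an array gave 18 to 25 lower genes in 4T1 against 67NR (22.2% to 27.9% of all genes). It gave 6 to 11 in 4T07 against 67NR (18.8% to 23.8% of all genes), with 6 without 67NR replicate 3 or 4T07 replicate 2. It gave 6 to 12 in 4T1 against 4T07 (11.2% to 16.6% of all genes), with 6 without 4T07 replicate 1, 4T1 replicate 2 or 4T1 replicate 3. In 4T07 against 67NR 0 to 1 genes were higher (Cenpa). Leaving aside the 1.5-fold threshold, the unadjusted t-test and single probes, genes that passed in every alternative were 13 in 4T1 against 67NR (Prc1, Mad2l1, Plk1, Kif22, Ncaph, Aurka, Aurkb, Kif11, Spc25, Espl1, Tpx2, Cdc25b and Pttg1), 4 in 4T07 against 67NR (Prc1, Ndc80, Bub3 and Pttg1) and 2 in 4T1 against 4T07 (Ncaph and Aurka). No gene past the threshold in either fit changed sign, and 36 changes of sign among 2328 values, at -0.25 to 0.17, were in genes that passed in neither. With the deposited log2 values dim genes had smaller differences in 4T1 against 67NR, with -0.75 for Pttg1, -0.70 for Espl1, -0.70 for Spc25, -0.58 for Kif11 and -0.54 for Tpx2. Median centring called 2524 higher and 2047 lower of all genes in 4T1 against 67NR, against 2327 and 2665. Same-numbered arrays of different lines did not deviate together over all genes (r between -0.169 and 0.153). With 3 arrays a line this cannot settle whether the numbers pair the arrays. With the replicate number as a block 23, 9 and 10 genes were lower (26.4%, 23.2% and 15.2% of all genes). The cause of these changes was not tested.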
